A study of Mus musculus with 23 samples.

Results

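The immediate early genes are a set of 34 genes that neurons and other cells transcribe within minutes of a stimulus, without first making new protein. All 34 were found by symbol among the 18578 genes of the deposited brain table, and all 34 had a mean of at least 10 normalized counts, so that each was among the 17118 genes tested. Cyr61 is listed under its newer name Ccn1. The set was chosen by known function and not by its values here, although earlier results of these data were known when it was chosen.

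Calcium entry through NMDA receptors and voltage-gated channels activates kinases such as ERK and CaMKIV, which act on the transcription factors CREB, SRF and MEF2 already bound near these genes. Most of the products are transcription factors that start a later wave of expression, whereas others act at synapses or switch the signal off again. In brain the RNA of Fos, Arc and Npas4 is widely used to mark recently active neurons. The RNAs are short-lived, so that levels depend on the interval between stimulus and tissue collection. That interval was not given in the sources used here for any group.

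The 23 libraries came from brain of male C57BL/6J mice. HT shock (6 libraries) and HT control (6) carried one Grin2b allele with the C456Y change in GluN2B, a subunit of the NMDA receptor, and WT shock (5) and WT control (6) were wild type. Mice of both shock groups had received foot-shock, in which a brief current is passed through the floor of the cage. The labels give an age of postnatal day 17 while the series text speaks of adult mice, and the brain region is not named. Values are normalized counts, and no label ties a library to an animal of its own, so that p-values rest on the spread among libraries, part of which may be technical.

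The smallest library summed to 30.98 M normalized counts and the largest to 32.57 M (M, 10 to the power of 6), and the sequencing depth behind them is unknown. All 8 pan-neuronal, 10 astrocyte and 10 oligodendrocyte markers examined were above 0 in every library. HT control replicate 6 stood apart on the first principal component of all genes tested (12.9% of the variance), at 31.3, while the other HT control libraries lay between -12.7 and 5.17. The HT shock libraries lay between 11.4 and 26.0 and the wild-type libraries between -18.5 and 1.63. HT control replicate 6 thus lay on the side of HT shock, and the reason was not tested. Grin2b, the edited gene, had group means of 10704 ± 655 normalized counts in HT shock, 12301 ± 1678 in HT control, 12833 ± 1389 in WT shock and 13621 ± 1019 in WT control (mean ± SD, 6, 6, 5 and 6 libraries). For genotype averaged over treatments Grin2b was called as lower in HT (log2 difference -0.21 ± 0.06, SE, limma adjusted p = 0.0209), as were 8.62% of all genes. In HT shock against WT shock it had -0.26 ± 0.08 (limma adjusted p = 0.0507). The reason was not tested. A missense allele can still be transcribed, so that these levels do not check the genotype labels.

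Every member was expressed in brain of all 4 groups, at very different levels. Per kilobase of annotated exon, the highest mean levels over the 23 libraries were those of the zinc finger transcription factor Egr1 (2082 normalized counts per kb) and of Arc, a protein of the postsynapse (1780). The AP-1 subunit Junb (816), the orphan nuclear receptor Nr4a1 (789) and Egr3 (703) followed. The lowest were Amigo3, an adhesion protein of the leucine-rich repeat family (15.3), the stress-induced transcription factor Atf3 (13.3) and the small MAF factor Maff (10.4).

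The members differed more between libraries of a single group than most genes did. The median residual SD on the log2 scale, taken within groups, was 0.30 for the 34 members and 0.14 for all 17118 genes tested. Of the members, 32 lay above the all-gene median. Arc had the largest residual SD of the set (0.68), followed by Fos (0.63), Egr2 (0.61), Npas4 (0.57) and the matrix protein gene Cyr61 (0.55). Only Klf6 (0.09) and Jun (0.10) lay below the all-gene median, while Coq10b, a coenzyme Q binding protein, lay just above it at 0.14. The median SD of the members was 0.24 in HT shock, 0.29 in HT control, 0.24 in WT shock and 0.38 in WT control, against 0.11, 0.15, 0.12 and 0.13 over all genes tested in the same groups.

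Fos, the founding AP-1 transcription factor (ENSMUSG00000021250, GRCm38 chromosome 12, 85473890 to 85477273, plus strand), shows the size of this spread. In HT shock its lowest, median and highest levels were 726, 1179 and 1487 normalized counts. In HT control they were 517, 853 and 1539. The 5 WT shock libraries had 939.5, 1202, 729, 745 and 412 normalized counts, and in WT control the lowest, median and highest were 409, 811 and 1954. The lowest and the highest Fos level of the study thus both came from unshocked wild-type libraries, 4.77-fold apart, and all 4 groups overlapped.

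Arc (chromosome 15, 74669083 to 74672570, minus strand), whose RNA travels to active synapses, spread as widely. In HT shock the lowest, median and highest levels were 2816, 6964 and 9847 normalized counts, and in HT control 2526, 4838 and 7984. The WT shock libraries had 5034, 5825, 4792, 3053 and 2248, and WT control ran over 2325, 5112 and 9024. A single low library, replicate 5, set the lower end of HT shock, and the other 5 lay at 6340.5 or above. Levels close to that of the highest HT shock library also occurred without shock, in WT control replicates 2 and 5 at 9024 and 8812.

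Npas4, a neuron-specific factor induced by calcium entry, had lowest, median and highest levels of 485, 822 and 1021 normalized counts in HT shock and 364, 579 and 1283 in HT control. In the WT shock libraries it was at 677, 1031, 653, 886 and 463, and WT control spanned 318, 566 and 1330. No group stood clear of another. The range within WT control, 4.18-fold, was the widest of the 4 groups for this gene.

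Junb, which pairs with Fos proteins in AP-1, had a lowest, median and highest of 1390.3, 2382 and 2989 normalized counts in HT shock and 1207, 1687 and 2424 in HT control. The WT shock libraries had 1946, 1972, 1703, 1332 and 975, and WT control ran over 1113, 1679.7 and 3088. As for Fos, the highest library of all was an unshocked wild-type one and every pair of groups overlapped.
Nr4a1 had a lowest, median and highest of 1777, 3574 and 4279 in HT shock and 1717, 2612 and 3763 in HT control. It had 2625, 2884, 2261, 1559 and 1472 in the WT shock libraries, and 1669.7, 2734 and 4447 in WT control. In HT shock 5 libraries lay above every WT shock library, and only replicate 5 lay within the WT shock range.
Dusp1 had a lowest, median and highest of 659.9, 1158 and 1449 in HT shock and 611, 893 and 1414 in HT control. Its WT shock libraries had 1034, 1096, 842, 657 and 547, against 621, 1051 and 1795 in WT control. All groups overlapped.

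**Figure D1:**
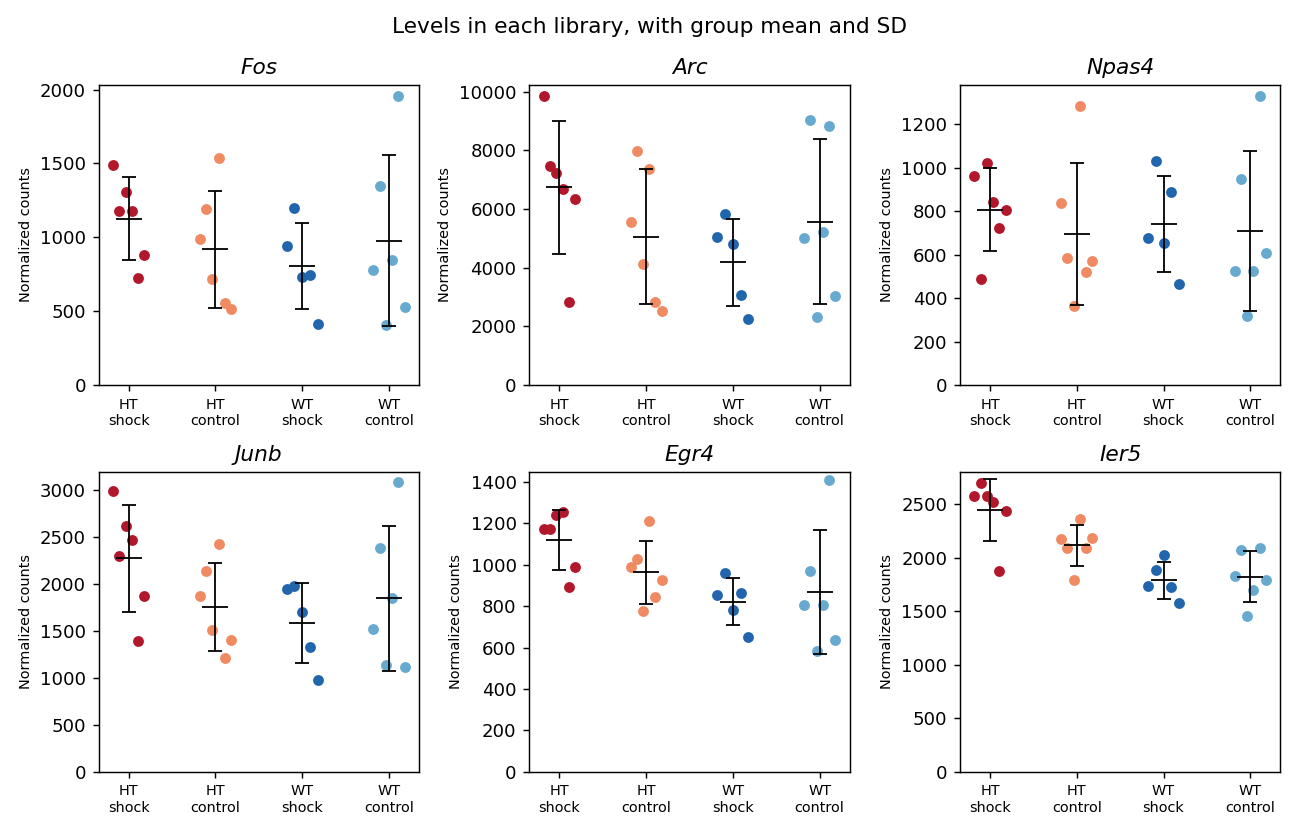
Normalized counts (linear axis from 0) of 6 immediate early genes in each library, by group, with the group mean and SD as black bars. Fos, Arc, Npas4 and Junb overlap between all 4 groups, with WT control libraries of Fos at 409 and at 1954, while 5 of 6 HT shock libraries of Ier5 lie above every WT shock library.

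The same libraries were high or low for most members. In WT control, replicate 5 had the highest level of the group for 24 of the 34 members and replicate 3 the lowest for 21. The median deviation of the members from their group means was 0.42 on the log2 scale in replicate 5, with 32 of 34 positive, and -0.44 in replicate 3, with 33 negative. Over all genes tested the same medians were 0.0007 and -0.003.

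The other groups each had such libraries. In HT shock, replicate 5 was lowest for 27 members, with a median deviation of -0.31, and replicate 1 was highest for 16 (0.19). HT control replicate 4 was highest for 21 members (0.29), while HT control replicates 6 and 5 were lowest for 14 and 9. WT shock replicate 5 was lowest for 24 members (-0.24), and WT shock replicate 2 was highest for 18 (0.18). No label separates these libraries from the others of their group.

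**Figure D2:**
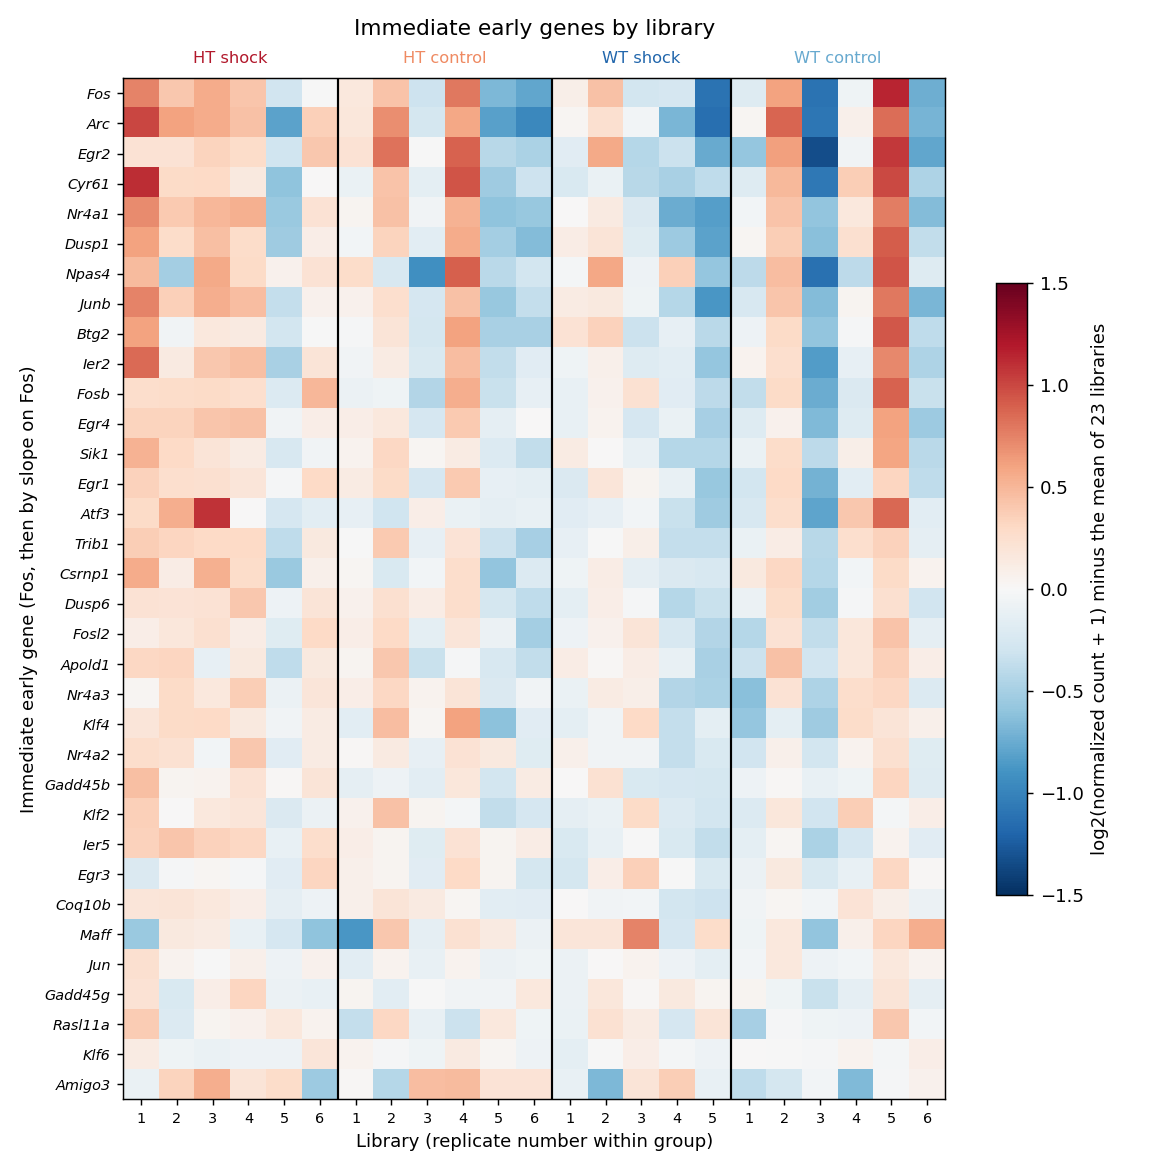
Each cell is the log2(normalized count + 1) of an immediate early gene in a library minus that gene's mean over the 23 libraries; rows start with Fos and then follow the slope on Fos, columns are libraries by group. Columns of one colour over most rows, such as HT shock replicate 5 (lowest of its group for 27 of 34 genes) and WT control replicate 5 (highest for 24), show members that varied together, and the rows at the bottom, from Egr3 to Amigo3, vary little or apart.

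To measure this joint variation, the log2 level of every other gene was fitted on the log2 level of Fos with the 4 groups as terms, so that only differences within groups counted. The slope is the log2 change of a gene per log2 unit of Fos, and was tested with limma and adjusted by Benjamini-Hochberg over all 17117 genes. Of the 33 members other than Fos, 19 rose with Fos and 0 fell, while 0.24% of all genes tested rose with it (41 genes) and 0.0292% fell (5 genes). The 10 genes with the largest moderated t were all members. The median slope was 0.34 for the members and 0.0002 for all genes tested.

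The steepest slopes belonged to genes of several functions. Arc had a slope of 1.01 ± 0.09 (SE, limma adjusted p = 7.92e-07) and Egr2, a zinc finger factor, 0.91 ± 0.08 (limma adjusted p = 2.49e-08). Cyr61 had 0.77 ± 0.10 (limma adjusted p = 3.57e-05), Nr4a1 0.72 ± 0.06 (limma adjusted p = 1.87e-07) and Npas4 0.71 ± 0.13 (limma adjusted p = 0.0123). The smallest p values belonged to Junb at 0.70 ± 0.04 and Dusp1, a phosphatase that inactivates MAP kinases, at 0.71 ± 0.05 (limma adjusted p = 3.08e-10 for both).

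Smaller slopes that also passed came from feedback and effector genes as well as transcription factors. The antiproliferative gene Btg2 had 0.62 ± 0.05 and Ier2 0.59 ± 0.06. Among the feedback regulators were the salt-inducible kinase Sik1 (0.42 ± 0.05), the pseudokinase Trib1 (0.37 ± 0.06) and the ERK phosphatase Dusp6 (0.34 ± 0.04). Fosb (0.49 ± 0.08), Egr4 (0.43 ± 0.04), Egr1 (0.41 ± 0.04), Csrnp1 (0.35 ± 0.07), Fosl2 (0.34 ± 0.06), Apold1, a gene of endothelial cells (0.33 ± 0.07), and Nr4a3 (0.31 ± 0.07) completed the 19.

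Members without a call included Klf6 (0.01 ± 0.03), the growth arrest gene Gadd45g (0.09 ± 0.05), the Ras-like GTPase gene Rasl11a (0.06 ± 0.09) and Egr3 (0.17 ± 0.06). Ier5 had 0.19 ± 0.04 (limma adjusted p = 0.0564) and Nr4a2 0.21 ± 0.05 (limma adjusted p = 0.0674), both close to the threshold. Atf3 (0.41 ± 0.12), Klf4 (0.29 ± 0.09) and Klf2 (0.19 ± 0.07), Klf4 and Klf2 being Krüppel-like factors, also missed the threshold. Amigo3 was the only member with a negative slope, -0.08 ± 0.13. Jun, which shares its protein family with Junb, had a slope of 0.10 ± 0.03 (limma adjusted p = 0.203).

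**Figure D3:**
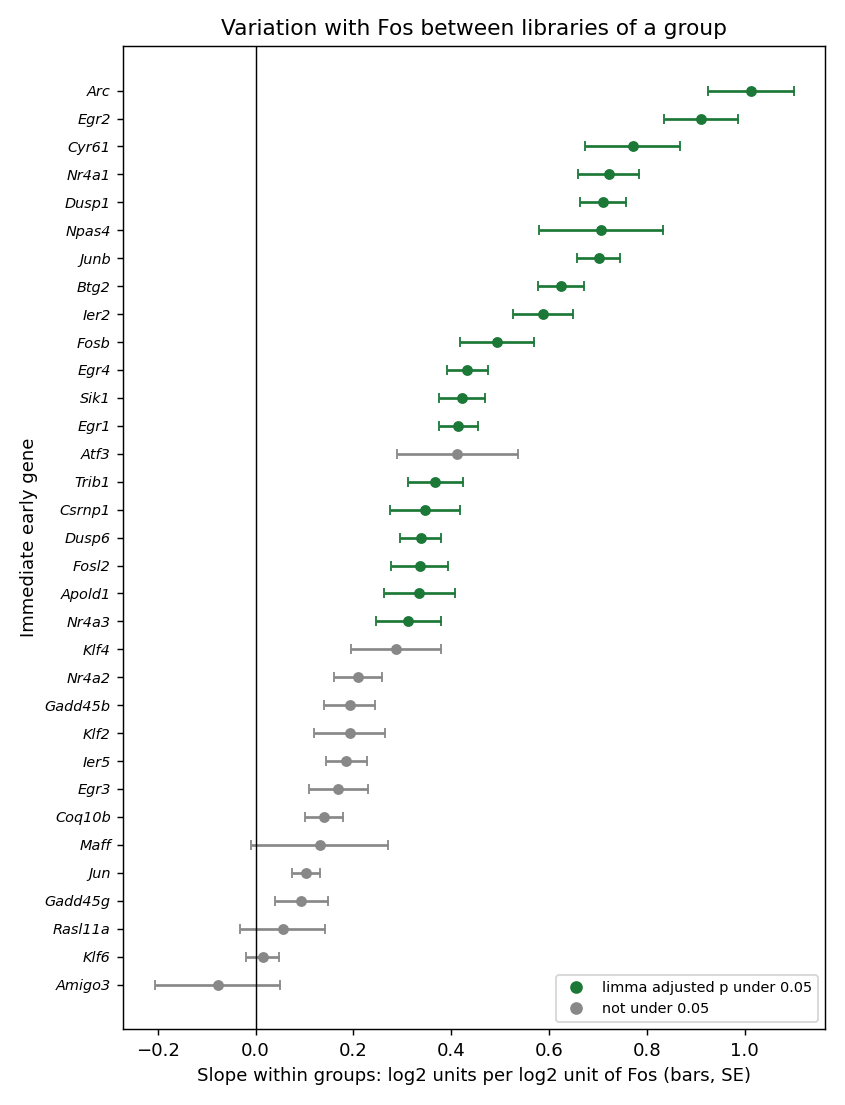
Slope of each of the other 33 immediate early genes on Fos within groups (log2 units per log2 unit of Fos; bars, SE; 23 libraries), green where the limma adjusted p was under 0.05. The 19 green points run from 0.31 for Nr4a3 to 1.01 for Arc, and Amigo3 at -0.08 is the only point below 0.

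The joint variation was also present within parts of the study. With the 2 libraries farthest from the median of Fos left out (WT control replicates 3 and 5), 13 members passed and 31 of 33 slopes were positive. In the 12 control libraries alone 14 passed, and in the 11 shock libraries alone 3 did, namely Junb, Dusp1 and Egr4, with 32 of 33 slopes positive in each. Median slopes were 0.30 in shock libraries and 0.36 in control libraries. In HT libraries 9 passed with a median of 0.36 and in WT libraries 14 with a median of 0.33, and the differences between these subsets were not tested. Dusp1 and Junb passed in all 36 alternative fits of the slope.

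Genes outside the set that followed Fos most closely were Midn (0.27 ± 0.03, limma adjusted p = 2.93e-05), Klf10, a KLF transcription factor (0.38 ± 0.06), the polo-like kinase Plk3 (0.26 ± 0.04) and the deubiquitinase Otud1 (0.22 ± 0.04). The muscarinic receptor Chrm4 (0.23 ± 0.04), Frmd6 (0.24 ± 0.04), the DNA damage kinase Atr (0.29 ± 0.05), Irf2bpl (0.12 ± 0.02), the ERK pathway inhibitor Spry4 (0.31 ± 0.06) and Bhlhe40, a basic helix-loop-helix repressor (0.15 ± 0.03), made up the remainder of the top 10 by moderated t, over 23 libraries.

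Delayed activity genes, which follow the immediate early wave, had a smaller median slope on Fos than the members. Of 28 measured, 2 rose with it, Frmd6 and the receptor Gpr3 (0.32 ± 0.06, limma adjusted p = 0.0172), beside 0.24% of all genes. Positive slopes were found for 24, and the median was 0.08 beside 0.0002 for all genes. None of the 44 signalling and regulator genes that act upstream of the set passed by limma, with 34 positive and a median of 0.04. The smallest p values there were those of the transcription factors Mef2c (0.14 ± 0.04) and Mef2d (0.08 ± 0.03).

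No marker of another cell type passed in the slope on Fos by limma, and microglial, blood and oligodendrocyte genes had negative slopes throughout. All 16 microglial markers had negative slopes, with a median of -0.24, led by C1qa (-0.29 ± 0.08, limma adjusted p = 0.206), and none was at 0 in any library. Their summed level ranged from 4805 to 7957 normalized counts in HT shock, 5390 to 8326 in HT control, 3862 to 7791 in WT shock and 4592 to 6663 in WT control. All 6 blood cell genes were negative too (median -0.23), with summed levels of 8117 to 14441, 7504 to 15368, 9741 to 16289 and 8266 to 14075 in the same 4 groups. All 10 oligodendrocyte markers were negative with a median of -0.05, as were 13 of 16 mural and fibroblast and 9 of 12 choroid plexus and ependymal markers (medians -0.02 and -0.10). The 20 endothelial markers had a median slope of 0.001 with 10 positive, and the 18 striatal markers 0.01. In tissue samples fewer cells of a type and less RNA per cell cannot be told apart, and the part of these cells in the joint variation was not tested. With the first residual component of all other genes as a covariate, 17 members passed.

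Promoter windows, taken from RefSeq on GRCm38.p6 and reaching from 250 bases before to 50 after a gene's start, were found for 28 of the 34 members. They are shown because these genes varied together and because the core of the CREB binding site, TGACG, can be read in them. TGACG on either strand was present in a window of 20 of the 28 members (71.4%) and of 23% of all 27025 genes with a window. Among Fos and the members that rose with it the count was 13 of 15, and among the other members with a window 7 of 13. The full palindrome TGACGTCA, which contains TGACG, occurred in 3 of 28 members, Dusp1, Btg2 and Maff, and in 2.03% of all genes. A CArG box, the site of SRF, lay in a window of 1 member, Egr2, and of 1.81% of all genes. Sites farther from the start than the windows reach were not searched. The motif GCGNGGGCG, bound by EGR proteins, was in windows of 9 members (32.1%) and of 6.27% of all genes, searched on both strands. The AP-1 motif TGANTCA was in windows of 1 member (3.57%) and of 8.97% of all genes. AAAGGTCA was in 0 members and 1.7% of all genes, and TATAAA in 7 members (25%) and 15.7% of all genes. No windows were matched for Egr3, nor for Egr1, Ier2, Arc, Sik1 and Trib1, which all rose with Fos. The 13 of 15 thus leaves out Egr1, Ier2, Arc, Sik1 and Trib1. A link between TGACG and the joint variation was not tested.

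The 4 sequences that follow are those of Fos, of the members with the smallest p of the slope, Junb and Dusp1, and of Btg2, with TGACG on either strand in capitals. They lie at chr12:85473640-85473939 (plus strand), chr8:84978699-84978998 (minus), chr17:26508423-26508722 (minus) and chr1:134079106-134079405 (minus), and are read 5′ to 3′ along the gene. Fos holds 2 matches and Junb 1, whereas Dusp1 and Btg2 each hold the palindrome. A match is a description of the letters only.
Fos: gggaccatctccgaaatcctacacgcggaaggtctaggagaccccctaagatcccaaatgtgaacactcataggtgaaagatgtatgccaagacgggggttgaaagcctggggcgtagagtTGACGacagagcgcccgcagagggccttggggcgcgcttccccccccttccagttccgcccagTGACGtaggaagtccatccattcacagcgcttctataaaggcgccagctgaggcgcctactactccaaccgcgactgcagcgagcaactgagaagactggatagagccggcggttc
Junb: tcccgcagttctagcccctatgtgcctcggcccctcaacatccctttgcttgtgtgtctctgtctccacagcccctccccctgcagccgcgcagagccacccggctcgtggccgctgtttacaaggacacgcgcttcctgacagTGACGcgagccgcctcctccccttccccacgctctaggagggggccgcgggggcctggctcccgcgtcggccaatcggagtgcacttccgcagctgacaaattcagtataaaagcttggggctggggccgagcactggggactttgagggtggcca
Dusp1: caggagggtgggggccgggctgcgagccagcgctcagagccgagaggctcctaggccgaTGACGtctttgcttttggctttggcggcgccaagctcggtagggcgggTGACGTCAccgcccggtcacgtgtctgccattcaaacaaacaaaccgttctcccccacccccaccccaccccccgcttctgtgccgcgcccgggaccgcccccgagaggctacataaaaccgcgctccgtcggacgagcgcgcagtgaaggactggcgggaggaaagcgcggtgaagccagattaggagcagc
Btg2: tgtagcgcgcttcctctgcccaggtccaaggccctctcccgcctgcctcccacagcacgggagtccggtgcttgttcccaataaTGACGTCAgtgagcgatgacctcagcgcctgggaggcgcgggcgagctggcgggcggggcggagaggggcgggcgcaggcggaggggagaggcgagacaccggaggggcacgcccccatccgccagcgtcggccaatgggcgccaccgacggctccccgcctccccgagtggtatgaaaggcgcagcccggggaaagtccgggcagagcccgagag

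The first group comparison asked what foot-shock did to the set in heterozygous brain. In HT shock against HT control 30 of 34 members and 51% of all genes had positive differences. By limma 0 members passed an adjusted p of 0.05, as did 0% of all genes tested. Members varied together between libraries, so that counts of signs, here and below, are not counts of independent observations. At an unadjusted p under 0.05 limma counted 2 members, Ier5 and Gadd45b, and 13.7% of all genes. The median difference was 0.16 on the log2 scale for the members and 0.003 for all genes. Arc had 0.46 ± 0.39 (SE), Junb 0.37 ± 0.26, Fos 0.37 ± 0.36 and Npas4 0.29 ± 0.32, with limma adjusted p between 0.528 for Junb and 0.695 for Npas4.
Gadd45b, a stress-induced regulator of DNA repair, had the second smallest p. Its lowest, median and highest levels were 329, 353 and 445 normalized counts in HT shock and 267, 302 and 365 in HT control, with a difference of 0.22 ± 0.10 (limma adjusted p = 0.338). Jun followed with 1810, 1991 and 2266 in HT shock and 1709, 1819 and 1992 in HT control (0.11 ± 0.05, limma adjusted p = 0.367). Both genes overlapped between the groups. The member median was 0.24 without HT shock replicate 5 and 0.11 without HT control replicate 6, and 0 members passed in either case. Without HT control replicate 6, 2065 genes of the whole table passed.

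In wild-type brain the same comparison gave values of the opposite sign for most members. In WT shock against WT control 26 of 34 members were negative, while 49.8% of all genes were positive. The medians were -0.08 for the members and -0.0004 for all genes, and 0 members passed by limma, as did 0% of all genes. At an unadjusted p under 0.05 there were 0 members and 3.72% of all genes. Nr4a1 had -0.34 ± 0.29, Dusp1 -0.33 ± 0.28, Arc -0.32 ± 0.41, Fos -0.16 ± 0.38 and Egr1 0.01 ± 0.17, all with limma adjusted p = 0.998. Without WT control replicate 5, which was highest for 24 members, the member median was 0.002, and without WT control replicate 3, which was lowest for 21, it was -0.16.
Coq10b had the smallest p, at 780, 753, 754, 644 and 629 normalized counts in WT shock and a lowest, median and highest of 734, 775 and 895 in WT control (-0.16 ± 0.08). Gadd45g had 397, 476, 429, 469 and 435 in WT shock against 335, 395 and 485 in WT control (0.13 ± 0.09). Both ranges overlapped. Jun, second by p, had -0.08 ± 0.06. No member was called as changed by shock in either genotype, and no member had groups free of overlap in any of the 4 pairwise comparisons, where 0.105% to 4.82% of all genes had such groups in a given direction (3.75% as higher and 4.82% as lower in HT shock against WT shock).

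The interaction asked whether the response to shock differed between genotypes. It was positive for 31 of 34 members and for 49.8% of all genes, with medians of 0.24 and -0.0007. By limma 0 members passed, as did 0% of all genes, with 2 members and 6.43% of all genes at an unadjusted p under 0.05. Arc had 0.78 ± 0.57 (limma adjusted p = 0.813), Nr4a1 0.68 ± 0.40, Atf3 0.66 ± 0.33 and Dusp1 0.61 ± 0.38. Jun had the smallest p with 0.19 ± 0.08 (limma adjusted p = 0.758), followed by Gadd45b (0.30 ± 0.14) and Csrnp1, a nuclear protein induced by axin signalling (0.46 ± 0.23). These values rest on the same libraries as both shock comparisons. The shock effect averaged over both genotypes had a member median of 0.04 with 24 positive and 0 called by limma, as 0% of all genes were, with 0 members and 9.08% of all genes at an unadjusted p under 0.05. Ier5 (0.09 ± 0.06), Gadd45g (0.09 ± 0.06) and Rasl11a (0.11 ± 0.10) had the smallest p there, and Npas4 the largest value (0.23 ± 0.23).

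Several marker lists of other cells and regions also had interaction values of mostly one sign, with 0 called by limma in any marker list. Negative were 19 of 20 endothelial (median -0.29), 16 of 16 mural and fibroblast (-0.23), 10 of 10 astrocyte (-0.10), 10 of 10 oligodendrocyte (-0.17) and 16 of 18 striatal markers (-0.18), whereas 15 of 18 cortical and hippocampal markers were positive (0.15). In HT shock against HT control 14 of 20 endothelial and 10 of 10 oligodendrocyte markers were negative, and in WT shock against WT control 20 of 20 and 9 of 10 were positive. Summed levels of the endothelial markers, in normalized counts, were 10502 to 13672 in HT shock, 11780 to 13562 in HT control, 12154 to 14716 in WT shock and 11344 to 13519 in WT control. Those of the oligodendrocyte markers were 193660 to 242050 in HT shock, 220270 to 247580 in HT control, 233600 to 294950 in WT shock and 214500 to 267800 in WT control. No marker of these lists was at 0 in any library, and their part in the values of the immediate early genes was not tested.

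**Figure D4:**
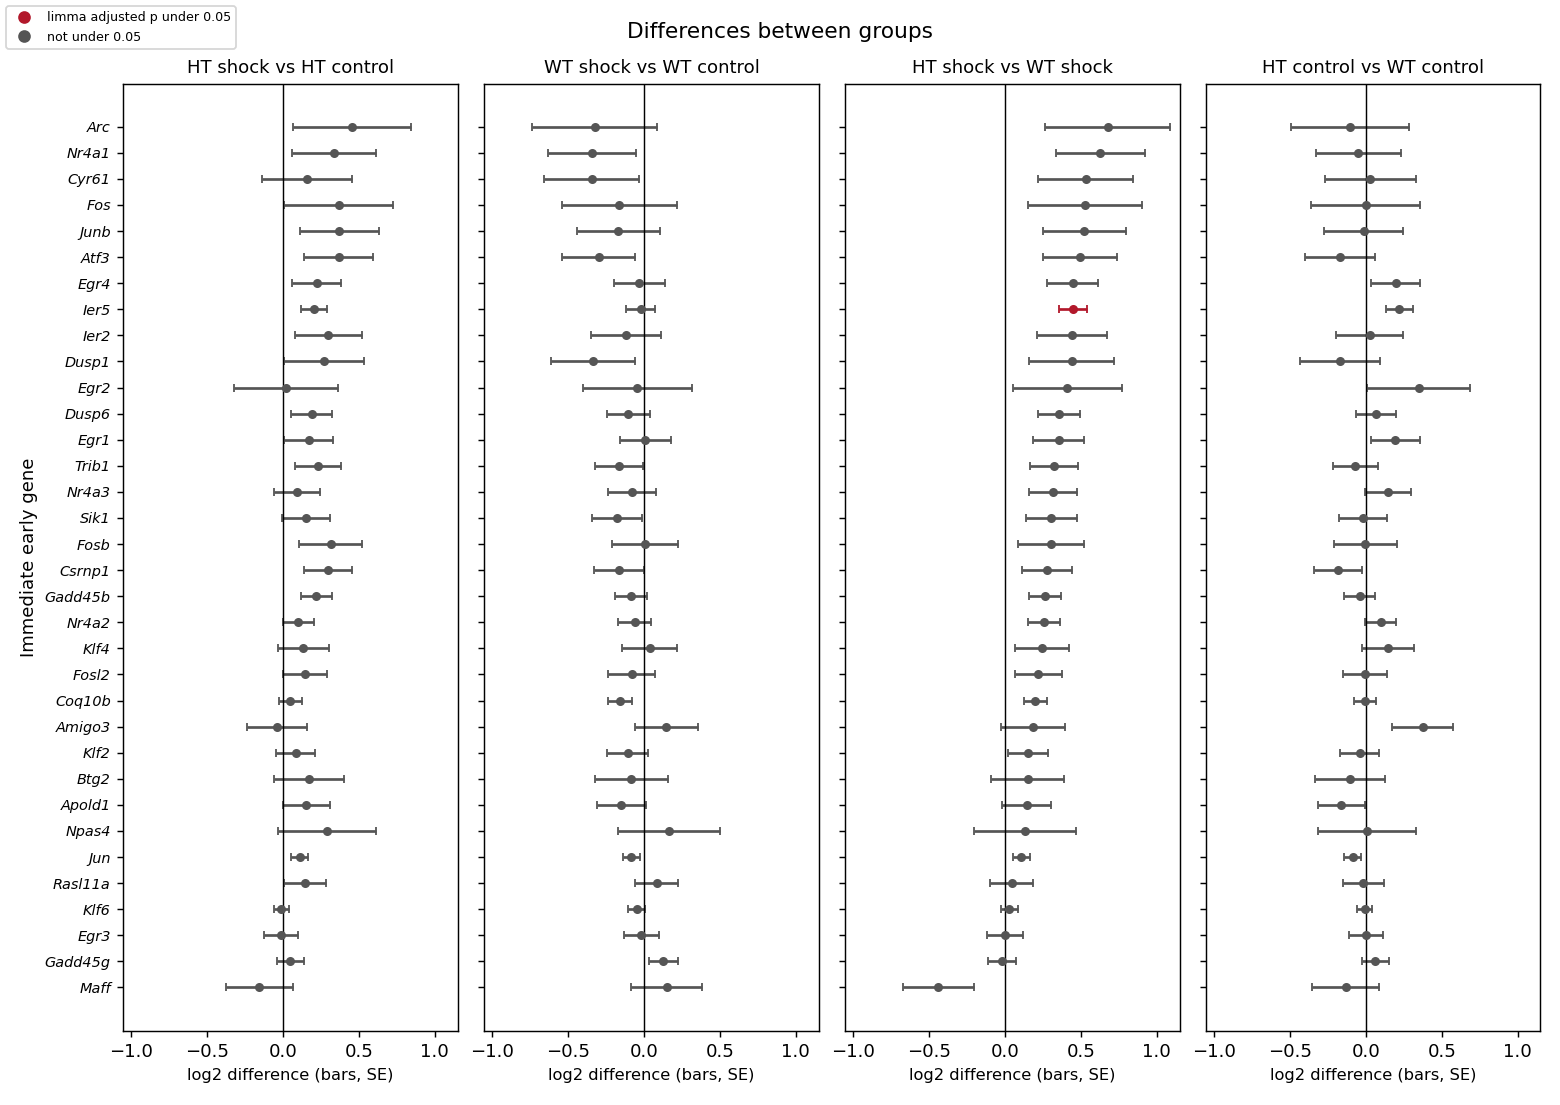
Log2 differences of the 34 immediate early genes with SE in 4 comparisons, ordered by HT shock against WT shock, red where the limma adjusted p was under 0.05. Most points lie right of 0 for HT shock against HT control (30 of 34) and for HT shock against WT shock (32 of 34), left of 0 for WT shock against WT control (26 of 34), and only Ier5 at 0.45 is red.

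The genotypes were then compared after shock. In HT shock against WT shock 32 of 34 members and 50.8% of all genes were positive, with medians of 0.29 and 0.004. One member, Ier5, passed as higher and 0 as lower, while 9.28% of all genes passed, 3.95% as higher and 5.33% as lower, so that 1 of 34 members called as higher is near the share of all genes called in that direction. By unadjusted p under 0.05 limma counted 8 members and 27.9% of all genes. The best-known members had positive values that missed the adjusted threshold, with 0.68 ± 0.41 for Arc (limma adjusted p = 0.292), 0.63 ± 0.29 for Nr4a1 (0.168), 0.52 ± 0.27 for Junb (0.22) and 0.53 ± 0.38 for Fos (0.38).

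Ier5 (ENSMUSG00000056708, chromosome 1, 155096361 to 155099636, minus strand) encodes a nuclear protein that acts with protein phosphatase PP2A on heat shock factor HSF1. Its lowest, median and highest levels were 1874, 2545 and 2695 normalized counts in HT shock, and the WT shock libraries had 1735, 1883, 2026, 1729 and 1573. In HT control they were 1789, 2131 and 2362, against 1455, 1811 and 2094 in WT control. Only HT shock replicate 5 lay within the WT shock range, and the other 5 HT shock libraries were at 2438 or above.
The difference was 0.45 ± 0.09 (SE, limma adjusted p = 0.00859), a fold of 1.36. It passed in every alternative fit, with values between 0.35, in the fit with Fos as a covariate, and 0.52. Without shock, the difference between HT control and WT control was 0.22 ± 0.09 (limma adjusted p = 0.4), and the interaction was 0.23 ± 0.13 (limma adjusted p = 0.782), so that a dependence on shock was not shown. Averaged over both treatments, the genotype difference was 0.33 ± 0.06 (limma adjusted p = 0.00341), and Ier5 was the only member called there, where 14% of all genes passed, 5.42% as higher and 8.62% as lower. Egr4 (0.32 ± 0.12, limma adjusted p = 0.0675) and the nuclear receptor Nr4a2 (0.18 ± 0.07, limma adjusted p = 0.101) came next.

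The promoter window of Ier5, shown because it is the member that differed by genotype, lies at chr1:155099587-155099886 (minus strand) and contains 0 matches to TGACG on either strand, so that no letters are in capitals.
Ier5: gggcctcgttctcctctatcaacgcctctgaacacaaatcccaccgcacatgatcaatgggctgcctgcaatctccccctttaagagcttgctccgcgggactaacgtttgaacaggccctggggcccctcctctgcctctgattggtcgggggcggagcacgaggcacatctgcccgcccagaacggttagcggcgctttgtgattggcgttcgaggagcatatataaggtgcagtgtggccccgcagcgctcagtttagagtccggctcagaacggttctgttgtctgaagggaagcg

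Egr4, a brain-enriched EGR factor, and Coq10b came next by p. Egr4 had a lowest, median and highest of 893, 1171 and 1256 normalized counts in HT shock, and 855, 958, 780, 864 and 653 in the WT shock libraries. The difference was 0.45 ± 0.17 (limma adjusted p = 0.0904), and 5 of the 6 HT shock libraries lay above every WT shock library. In WT control its spread was wider, from 585 to 1408. Leaving out WT control replicate 5, which had the highest of these, brought Egr4 past the threshold (0.45 ± 0.13, limma adjusted p = 0.0375).
Coq10b had 711, 848 and 888 in HT shock against 780, 753, 754, 644 and 629 in WT shock (0.20 ± 0.08, limma adjusted p = 0.0908). Dusp6 had 1444, 1766 and 2013 in HT shock against 1380, 1627, 1510, 1136 and 1205 in WT shock (0.36 ± 0.14, limma adjusted p = 0.095). Both overlapped. Maff was the member with the lowest value (-0.44 ± 0.23, limma adjusted p = 0.218), with mean levels of 22.9 ± 5.25 normalized counts in HT shock and 31.5 ± 8.15 in WT shock (SD over 6 and 5 libraries), where the added pseudocount understates changes.

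Because most members moved with Fos, the group differences were also fitted with the Fos level of each library as a covariate, a choice made after the values had been seen. The member median, Fos aside, was then 0.10 in HT shock against WT shock. It was 0.03 in HT shock against HT control and -0.03 in WT shock against WT control. Fos is itself a member, and its own differences in these comparisons were 0.53, 0.37 and -0.16. Slopes on Fos were mostly positive, so that the covariate by construction shifts most values against the sign of the Fos difference. The smaller medians are therefore no separate result, and single members are shifted by their own slopes. Ier5 remained higher in HT shock than in WT shock at 0.35 ± 0.07 (limma adjusted p = 0.00818), and Egr4 passed at 0.22 ± 0.07 (limma adjusted p = 0.0477), where 13.8% of all genes passed in either direction. For the genotype difference averaged over treatments Ier5 (0.28 ± 0.05), Egr4 (0.21 ± 0.05, limma adjusted p = 0.00762) and Egr1 (0.17 ± 0.05, limma adjusted p = 0.0181) passed, beside 18.1% of all genes. Egr1 itself had a lowest, median and highest of 9025, 10843 and 11616 normalized counts in HT shock, 7687, 9165 and 11985 in HT control and 5601, 7896 and 11444 in WT control, and WT shock libraries had 7873, 10333, 9383, 8455 and 6150.

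Without shock the members showed no common direction by genotype. In HT control against WT control 13 were positive and 21 negative, the median was -0.01 beside -0.0007 for all genes, and 0 passed by limma, as did 0% of all genes. One member, Ier5, had an unadjusted p under 0.05, as did 11.1% of all genes. Fos (-0.002 ± 0.36), Npas4 (0.005 ± 0.32) and Junb (-0.01 ± 0.26) had differences near 0 with wide errors. Amigo3 had the second smallest p, with means of 43.1 ± 9.42 normalized counts in HT control and 32.8 ± 6.16 in WT control (SD, n = 6 each; log2 difference 0.37 ± 0.20, limma adjusted p = 0.483), and the groups overlapped. Jun came next at -0.09 ± 0.05.

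Delayed activity genes and upstream regulators were compared between the same groups. In HT shock against WT shock 3 of the 28 delayed activity genes passed as higher and 0 as lower, beside 3.95% and 5.33% of all genes. They were the secreted neuropeptide precursor Vgf (0.30 ± 0.06, limma adjusted p = 0.00466), the neuronal pentraxin Nptx2 (0.26 ± 0.06, limma adjusted p = 0.0183) and the kinase Plk2 (0.17 ± 0.05, limma adjusted p = 0.0354). Without shock, HT control against WT control gave 0.21 ± 0.05 for Vgf and 0.23 ± 0.06 for Nptx2 (limma adjusted p = 0.29 for both). For genotype averaged over treatments 3 of 28 passed as higher and 1 as lower, beside 5.42% and 8.62% of all genes. Higher were Vgf at 0.25 ± 0.04 (limma adjusted p = 0.00103), Nptx2 at 0.24 ± 0.04 (limma adjusted p = 0.00222) and Bdnf at 0.18 ± 0.06 (limma adjusted p = 0.0479). The kinase Sgk1 was lower at -0.65 ± 0.18 (limma adjusted p = 0.0258).
Of the 44 upstream genes 1 passed as higher in HT shock than in WT shock, the transcription factor Srf (0.21 ± 0.06, limma adjusted p = 0.0437). Passing as lower were 3, the kinases Rps6ka5 (-0.29 ± 0.07), Camk4 (-0.45 ± 0.14) and Braf (-0.25 ± 0.08), so that the share called was close to the 9.28% of all genes. Medians in HT shock against WT shock were 0.07 for the delayed and -0.04 for the upstream genes, and 0 of either list passed by limma in the 2 shock comparisons. For genotype averaged over treatments 2 of the 44 upstream genes passed as higher and 12 as lower, beside 5.42% and 8.62% of all genes. The smallest p values there belonged to Rps6ka5 (-0.25 ± 0.05, limma adjusted p = 0.00394) and Cacna1c (-0.16 ± 0.04, limma adjusted p = 0.00872), both lower. The reason was not tested.

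Region and cell markers also differed between HT shock and WT shock, where 3.95% of all genes were called as higher and 5.33% as lower. Of 18 striatal markers 13 were lower and 0 higher, with summed levels of 44133 to 62972 normalized counts in HT shock and 68687 to 70332 in WT shock. Of 18 cortical and hippocampal glutamatergic markers 7 were higher and 2 lower, with summed levels of 113360 to 131750 in HT shock and 100460 to 113380 in WT shock, and of 10 oligodendrocyte markers 7 were lower. Without shock 0 of them were called by limma, but 18 of 18 striatal and 8 of 10 oligodendrocyte markers were negative in HT control against WT control. Of the cortical and hippocampal markers 12 of 18 were positive there. So were 16 of 16 microglial, 16 of 16 mural and fibroblast and 12 of 12 choroid plexus and ependymal markers (medians 0.24, 0.19 and 0.29). Of the endothelial markers 16 of 20 and of the cerebellar ones 11 of 12 were positive, while 8 of 10 thalamic and 8 of 10 astrocyte markers were negative. For genotype averaged over treatments 17 striatal markers were called as lower, beside 8.62% of all genes. None of these markers was at 0 in any library. Their part in the Ier5, Vgf and Nptx2 differences was not tested.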

How the data were processed

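RNA libraries were made with a stranded mRNA kit, per the labels' protocols. The authors deposited, for each gene, a signal per library in the form of normalized counts that carry decimals. The submitters' processing notes name the build GRCm38 and, without their roles, DESeq2 1.26.0, Salmon 1.1.0 and R 3.6.2. Whole reads could not be recovered (22.5% to 56% of low values lay within 0.1 of a whole multiple), so no count model was fitted. Of 24 library columns 1 matched no label and was not used. Symbols and positions came from the GENCODE annotation of GRCm38 for 18563 of 18578 IDs. Groups and replicate numbers came from the titles. No 2 libraries were treated as duplicates (highest correlation 0.9908).

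Values were taken as log2(normalized count + 1), which understates changes of low genes. Genes averaging at least 10 entered limma 3.58.1 (R 4.3.3; trend and robust moderation), which fitted the 4 groups together; p-values were adjusted by Benjamini-Hochberg over all genes, with a threshold of 0.05, and the model was tested on simulated data. Alternatives covered pseudocount, filter, centring, library weights, replicate block, a residual component, the groups in the fit, the threshold and each library left out; the fits with Fos as a covariate and in HT or WT libraries alone were chosen after seeing the data.

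The members, lists and tests were chosen with earlier results of these data known. Named were 7 members in every library (Fos, Arc, Npas4, Egr1, Nr4a1, Junb and Dusp1), the 3 members with the smallest p per comparison, all called members, up to 4 genes of each other list, and the 10 genes outside the set most like Fos. Exons of Jun, Junb, Csrnp1, Dusp1 and Coq10b share 232, 173, 224, 11 and 343 bases with a gene on the opposite strand, and whether counting used the strand was not given in the sources used here. Figures were drawn with matplotlib 3.10.9.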

Additional observations from a re-analysis of the deposited data

Results flagged for a closer look

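In HT shock, replicate 5 lay far below the other 5 libraries for 5 members. Arc was at 2816 normalized counts there against 6340.5 to 9847 in the others, Fosb at 321 against 438 to 523, Egr2 at 158.5 against 227 to 258, Trib1 at 516 against 744 to 872 and Ier5 at 1874 against 2438 to 2695. Of 136 combinations of member and group examined, 5 stood apart in this way, and chance gives about 7. All 5 fell in this library, which was lowest of its group for 27 members. Arc, Fosb, Egr2 and Trib1 were among the members that rose with Fos, so that the 5 are not independent of each other.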

How the results depend on the processing

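Pseudocount, median centring and both filters left the counts of genes and members called within 1.5 times their values, and no result reversed. Only the compared groups in the fit gave 1 gene for HT shock against HT control, and 2932 genes and 3 members (Ier5, Egr4 and Dusp6) for HT shock against WT shock. Library weights gave 2792 genes and 1 member (Ier5) for HT shock against HT control, 3775 genes and 3 members for HT shock against WT shock, 2 genes for the interaction and 574 for shock averaged over genotypes. The first residual component gave 4 genes for HT shock against HT control. A threshold of 0.1 gave 4 genes there, 5 for HT control against WT control, 3092 genes and 4 members for HT shock against WT shock, and 4011 genes and 2 members for genotype averaged over treatments. With Fos as a covariate there were 1 gene for HT shock against HT control, 2 members for HT shock against WT shock and 3 for genotype. For the slope, Arc in place of Fos gave 80 genes, control libraries 19, shock libraries 4 with 3 members, HT libraries 10 with 9 members and WT libraries 19. The causes were not tested, although the subsets hold fewer libraries.

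Leaving out 1 library at a time gave 0 to 2065 genes for HT shock against HT control (most without HT control replicate 6), 0 to 2 for HT control against WT control, and 422 (without HT shock replicate 1) to 2923 (without HT control replicate 6) for HT shock against WT shock, with 1 to 2 members. It gave 0 to 1 genes for the interaction, 1 to 2 members for genotype, 0 to 686 genes for shock (most without HT control replicate 6) and 30 to 49 for the slope (fewest without WT control replicate 2).

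With the replicate block by title number, 450 genes passed in HT shock against WT shock and 1505 for genotype; by the number in the library name 976 passed in HT shock against WT shock. The numbers were not taken as pairing the libraries, because only 5 of 33 same-number pairs by title and 3 of 33 by library name had deviations correlated above 0.1. The 3 by library name all joined number 1 of HT shock, HT control and WT control (0.194, 0.194 and 0.137). Pairs of unlike number were not examined, and a shared origin of these 3 libraries was not tested. Ier5 passed in both fits with the block.

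Depth is unknown, and neither the brain region nor the time from shock to tissue was given, which limits what 0 calls for shock can show.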
